A study of Mus musculus with 10 samples.

Results

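Autophagy genes were examined in whole kidneys of aged mice that carried an active form of the nutrient-sensing GTPase RagC. The set held 42 genes of the autophagy machinery and its receptors, chosen by gene symbol from the 13299 genes of the deposited table, and all 42 were found there and passed the filter on low values. They were placed in 8 steps: 5 genes of initiation, 6 of nucleation, 7 of membrane supply and phosphoinositide (PI3P) effectors, 9 of conjugation, 5 of the LC3 family, 5 cargo receptors, 3 mitophagy receptors and 2 of fusion. The question was whether the 5 Rragc S74N/+ kidneys differed from the 5 Rragc +/+ kidneys in any of these genes, and whether the steps behaved alike.

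All mice were 1.5 years old and on a C57BL/6 background, and the labels name no other engineered allele in either group. The labels do not give the sex, litter or extraction batch of each mouse, so these could not be fitted and may differ between the groups. Rragc S74N/+ mice held 1 knocked-in copy of Rragc, made by CRISPR editing, in every cell of the body, so the kidney was not the only organ affected. Libraries were made from 300 ng of total RNA with an RNA quality score between 6.2 and 7, by oligo-dT priming and sequencing of the 3′ end of each mRNA. Each value is a normalized count, that is, a read count divided by a size factor of the sample, and because each mRNA gives 3′ tags only, the count does not scale with the length of the transcript.

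Autophagy encloses cytoplasm in a double membrane and delivers it to the lysosome. The ULK1 kinase complex starts the process, the lipid kinase complex of VPS34 and Beclin 1 marks the site with PI3P, and ATG2, ATG9 and the scramblases VMP1 and TMEM41B bring in lipid. A pair of ubiquitin-like conjugation systems then attaches proteins of the LC3 and GABARAP families to the membrane, where cargo receptors bind them. RagC acts upstream of mTORC1, which inhibits the ULK1 complex and keeps TFEB and TFE3, transcription factors of lysosomal and autophagy genes, in the cytoplasm. The proximal tubule of the kidney is known for a high rate of autophagy.

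TFEB and TFE3 bind an E-box with the core CACGTG, so this core was searched on both strands in the 250 bases upstream of each RefSeq start (mouse build GRCm38.p6). The core occurred in 6.02% of 32851 promoters of this length. Of the 42 genes, 34 had an entry, with 40 promoters, and 4 of these promoters held the core, those of Atg3, Atg5, Atg7 and Bnip3. Every match in these promoters is shown, with the core in capitals and the gene strand written 5′ to 3′. Atg3, Atg5 and Atg7 act in conjugation and Bnip3 in mitophagy.
Atg3, chr16:45158718-45158757, plus strand: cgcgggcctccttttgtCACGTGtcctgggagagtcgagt
Atg3, chr16:45158741-45158780, plus strand: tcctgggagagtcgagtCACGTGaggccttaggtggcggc
Atg5, chr10:44268308-44268338, plus strand: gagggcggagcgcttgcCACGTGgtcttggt
Atg7, chr6:114670947-114670986, plus strand: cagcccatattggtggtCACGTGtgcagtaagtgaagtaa
Bnip3, chr7:138909592-138909631, minus strand: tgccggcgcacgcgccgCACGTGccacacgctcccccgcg
The core began 94 and 71 bases upstream of the start in Atg3, 14 bases in Atg5, 132 bases in Atg7 and 108 bases in Bnip3. Upstream sequence is also shown for the LC3 family genes Gabarapl1 and Gabarap, which both fell in Rragc S74N/+ kidneys. Capitals in Gabarapl1 mark the forkhead-type motif ATAAACA, a form that was added to the search after this promoter had been read.
Gabarapl1, chr6:129533072-129533191, plus strand: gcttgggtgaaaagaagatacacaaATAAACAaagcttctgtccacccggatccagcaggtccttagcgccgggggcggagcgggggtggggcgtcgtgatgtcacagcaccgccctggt
Gabarap, chr11:69991250-69991369, plus strand: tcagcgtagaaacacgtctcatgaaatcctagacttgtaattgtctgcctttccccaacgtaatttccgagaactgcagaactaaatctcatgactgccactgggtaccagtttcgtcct
Either GTAAACA or ATAAACA, on either strand, occurred in 7.10% of all promoters of this length and in 3 of the 40 member promoters, those of Ambra1, Atg4a and Gabarapl1. All 3 matches were of the added form ATAAACA, and no member promoter held GTAAACA. The Gabarapl1 match was known before the form was added, so these counts are no test of the motif. Of the genes that rose in Rragc S74N/+ kidneys, Rb1cc1 had no promoter entry. Tax1bp1 is not shown, and its promoters held neither the CACGTG core nor a forkhead-type form. A match describes these letters in these windows and shows no binding.

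Depth was 4488493 to 5797251 reads in the 8 samples whose whole reads could be recovered. Rragc itself averaged 146 ± 42.7 normalized counts in Rragc +/+ kidneys and 124 ± 26.4 in Rragc S74N/+ kidneys (SD, n = 5 each). Its tags at the 3′ end do not cover the changed codon, so they do not check the genotype. One library stood apart. Rragc S74N/+ replicate 1 was the highest or lowest of its group for 27 of the 42 autophagy genes. The same was true for 58.7% of all genes tested. The genes past the threshold, the medians of the steps and some of the values that this library moved are given below also without it. Proximal tubule markers were abundant, with summed counts of 40602 to 53059 in Rragc +/+ and 40916 to 51093 in Rragc S74N/+ kidneys.

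Some markers of cell types moved with genotype. The 4 markers of the distal convoluted tubule all fell, and their summed counts were 4477 to 5597 in Rragc +/+ and 1365 to 2130 in Rragc S74N/+ kidneys. Fibroblast markers summed to 578 to 876 in Rragc +/+ and 964 to 1505 in Rragc S74N/+, and 2 of 4 rose. T cell markers summed to 10.9 to 48.0 in Rragc +/+ and 53.0 to 84.0 in Rragc S74N/+, and 1 of 3 measured rose. Neutrophil markers summed to 11.4 to 26.8 and 32 to 71.3, and 1 of 2 measured rose. Erythroid markers ran from 6125 to 12780 in Rragc +/+ and from 491 to 6631 in Rragc S74N/+ kidneys, with none of 3 past the threshold and the lowest value in replicate 1. In the thick ascending limb list 1 of 4 markers fell, in the proximal tubule list 1 of 8 fell, and in the intercalated cell list 1 rose and 1 fell. Macrophage markers summed to 354 to 536 in Rragc +/+ and 566 to 721 in Rragc S74N/+ kidneys, with none of 4 past the threshold. No marker of collecting duct principal cells, podocytes, endothelium, B and plasma cells or adipocytes passed the threshold. Adipocyte markers varied widely within both groups. Their summed counts were 748 in replicate 1 of Rragc S74N/+, the highest of all kidneys, beside a median of 54.4 in that group. In Rragc +/+ kidneys the sums reached 383, with a median of 35.8. Adipoq alone had 366 normalized counts in replicate 1 of Rragc S74N/+ and 179 in replicate 3 of Rragc +/+. In whole tissue, fewer cells of a type and less RNA per cell cannot be told apart, and the part of these markers in the results on autophagy genes was not tested.

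In the autophagy set, 2 genes rose, 2 fell and 38 did not pass the test. Rb1cc1, which encodes the ULK1 complex scaffold FIP200, and Tax1bp1, a receptor for ubiquitinated cargo, were higher in Rragc S74N/+ kidneys. Gabarap and Gabarapl1, members of the ATG8-like LC3 family, were lower. The 4 calls are 9.52% of the 42 genes, beside 6.03% of the 13236 genes tested (limma, Benjamini-Hochberg adjusted p under 0.05). In each direction they are 4.76% of the genes, beside 3.45% of all genes higher and 2.58% of all genes lower, so the share of called genes was near that of the whole table. In 5 of the 42 genes the groups did not overlap, 3 higher and 2 lower, beside 8.16% of all genes (4.15% higher and 4.01% lower). Without adjustment 10 of the 42 genes, 5 in each direction, had a p under 0.05, beside 25.4% of all genes. The median log2 fold change of the 42 genes was -0.05, beside -0.01 for all genes tested. Of the 38 genes that did not pass, 18 had a 95% interval that lay wholly within 0.5 of 0 on the log2 scale, and for the other 20 a difference of that size was within the interval.

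**Figure D1:**
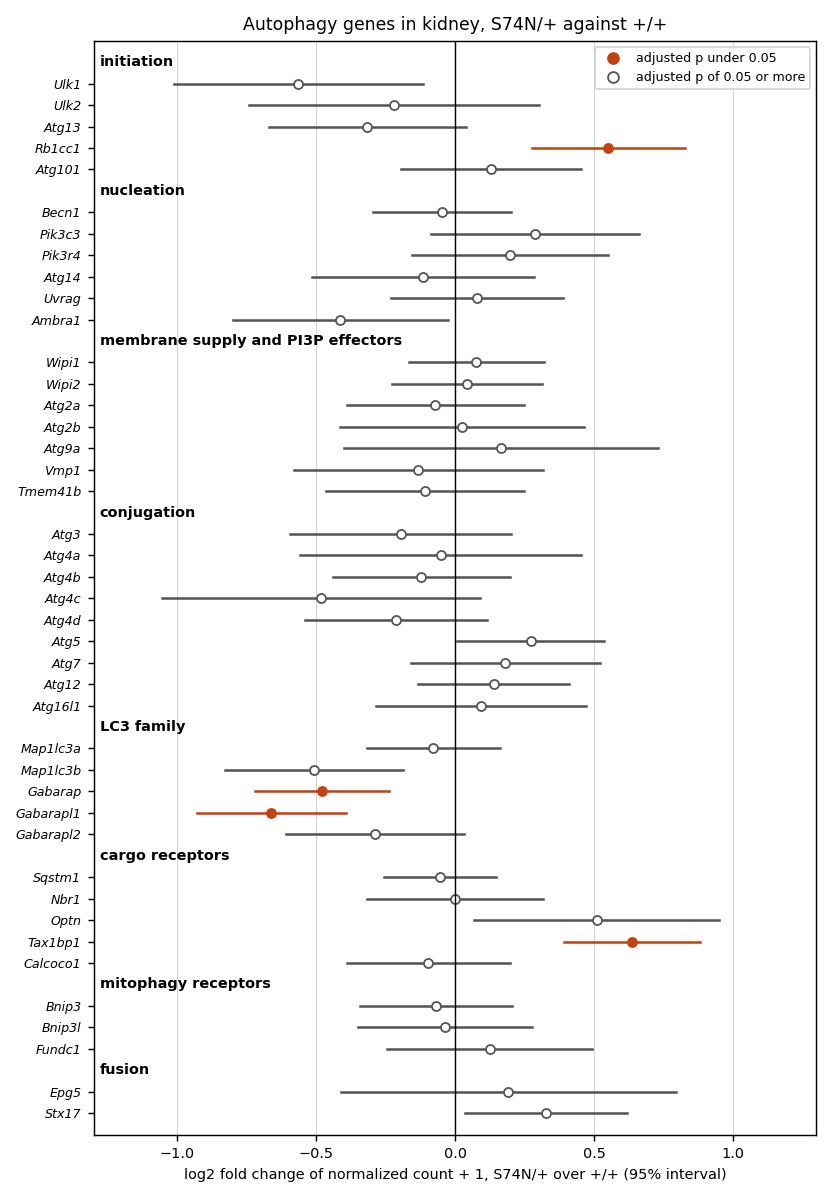
Log2 fold change of normalized count + 1 in Rragc S74N/+ over Rragc +/+ kidneys for the 42 autophagy genes. Genes are grouped by step, with n = 5 per genotype. Points are estimates, bars are 95% intervals and filled points passed an adjusted p of 0.05. The 4 filled points are Rb1cc1, Gabarap, Gabarapl1 and Tax1bp1, and all 5 genes of the LC3 family lie below 0, where Map1lc3a alone moves to 0.00028 when library totals are made equal.

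The LC3 family held both of the genes that fell. Gabarapl1, whose protein joins the autophagosome membrane after lipid conjugation, was the most abundant of the 42 transcripts in Rragc +/+ kidneys (mean 3583 normalized counts) and second to Sqstm1 in Rragc S74N/+ kidneys (2272 against 2715). Its normalized counts were 3687, 3341, 3195, 4337 and 3356 in Rragc +/+ and 1752, 2362, 2597, 2493 and 2153 in Rragc S74N/+ kidneys. Every Rragc S74N/+ kidney was below every Rragc +/+ kidney. Its log2 fold change was -0.66 ± 0.13 (SE), with an adjusted p of 0.00813, and without replicate 1 of Rragc S74N/+ it was -0.57, with an adjusted p of 0.00254.

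Gabarap, the gene that gives the GABARAP subfamily its name, changed in the same direction. It had 677, 806, 620, 651 and 671 normalized counts in Rragc +/+ and 440, 529, 557, 432 and 498 in Rragc S74N/+ kidneys. The groups did not overlap here either. The log2 fold change was -0.48 ± 0.11 (SE), with an adjusted p of 0.0221. It was -0.44 without replicate 1 of Rragc S74N/+, with an adjusted p of 0.0202. Without replicate 1 or 2 of Rragc +/+, or replicate 4 or 5 of Rragc S74N/+, the adjusted p was between 0.0518 and 0.0713. With any 1 library left out, the log2 fold change of Gabarap stayed between -0.53 and -0.42.

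Map1lc3b, which encodes the LC3B protein used as the standard marker of autophagosomes, lay just outside the threshold. Its normalized counts averaged 487 ± 73.3 in Rragc +/+ and 344 ± 64.2 in Rragc S74N/+ kidneys (SD, n = 5 each), a log2 fold change of -0.51 ± 0.15 (SE) with an adjusted p of 0.0566, and without replicate 1 of Rragc S74N/+ it was -0.38, with an adjusted p of 0.0639. The ranges overlapped, from 385 to 572 in Rragc +/+ and from 239 to 402 in Rragc S74N/+. Gabarapl2 (GATE-16) averaged 444 ± 82.3 and 364 ± 64.6 (SD, n = 5 each), with a log2 fold change of -0.29 and a 95% interval of -0.61 to 0.03, and -0.18 without the same replicate. Map1lc3a, the other LC3 gene, had 678, 699, 583, 679 and 837 normalized counts in Rragc +/+ and 724, 637, 669, 662 and 585 in Rragc S74N/+ kidneys. These ranges overlapped over most of their length, and the 95% interval of its log2 fold change ran from -0.32 to 0.16.

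Summed over the 5 genes, LC3 family transcripts ran from 5273 to 6538 normalized counts in Rragc +/+ and from 3419 to 4601 in Rragc S74N/+ kidneys. Gabarapl1 made up 60.7% ± 3.80 of the sum in Rragc +/+ and 54.9% ± 2.34 in Rragc S74N/+ (SD, n = 5 each). The share of Map1lc3a was 11.8% ± 1.77 and 16.1% ± 2.84. The shares of both genes overlapped between genotypes and were not tested. For Gabarapl1 they ran from 55.7% to 66.3% in Rragc +/+ and from 51.3% to 57.3% in Rragc S74N/+. For Map1lc3a they ran from 10.4% to 14.9% and from 14.5% to 21.2%, with the highest value in replicate 1 of Rragc S74N/+. Ratios of normalized count + 1 within a sample depend little on its size factor, and none gave a test past the threshold. The smallest p that the exact permutation test can give here is 0.00794. A single pair could therefore not have passed after adjustment over 10 pairs. The log2 ratio of Map1lc3a to Map1lc3b averaged 0.52 ± 0.35 in Rragc +/+ and 0.95 ± 0.38 in Rragc S74N/+ (SD, n = 5 each), with an exact two-sided permutation p of 0.0952, adjusted to 0.317 over 10 pairs. The difference of 0.43 became 0.27 without replicate 1 of Rragc S74N/+. For Gabarapl1 to Gabarap the log2 ratio averaged 2.38 ± 0.25 and 2.20 ± 0.20, with an exact permutation p of 0.230, adjusted to 0.460.

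**Figure D2:**
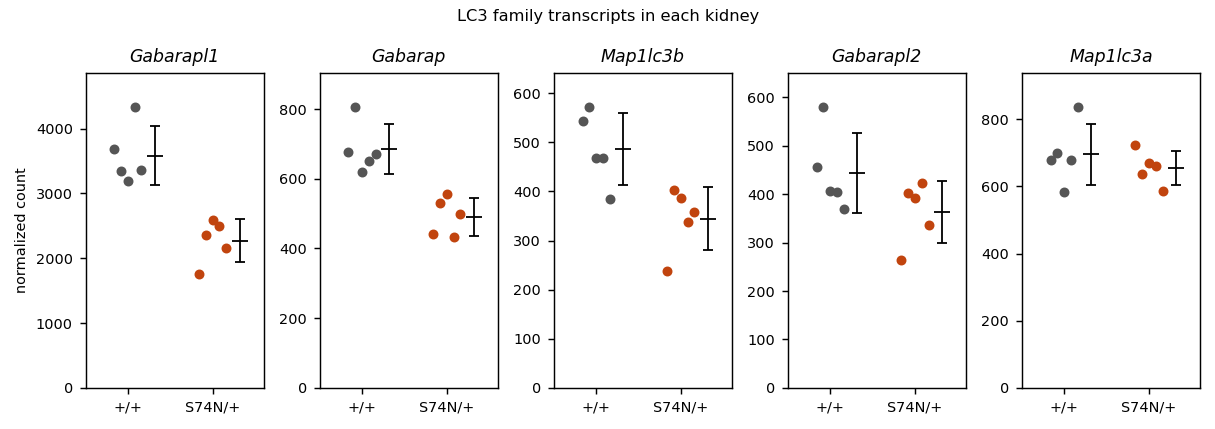
Normalized counts (vertical axes, from 0, scaled per gene) of the 5 LC3 family genes in each kidney, Rragc +/+ in grey and Rragc S74N/+ in orange, with mean and SD beside the points, n = 5 per genotype. For Gabarapl1 and Gabarap no Rragc S74N/+ point reaches the lowest Rragc +/+ point, at 3195 and 620, while the points of Map1lc3a overlap.

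Initiation held 1 gene that rose and none that fell. Rb1cc1 had 217, 186, 242, 226 and 251 normalized counts in Rragc +/+ and 354, 279, 282, 360 and 376 in Rragc S74N/+ kidneys. All Rragc S74N/+ kidneys were above all Rragc +/+ kidneys. The log2 fold change was 0.55 ± 0.13 (SE), with an adjusted p of 0.0221. It passed without replicate 1 of Rragc S74N/+ (0.52, adjusted p 0.0211), but not without replicate 1, 2 or 4 of Rragc +/+ or replicate 4 or 5 of Rragc S74N/+, where the adjusted p was between 0.0512 and 0.0695. With any 1 library left out, its log2 fold change stayed between 0.49 and 0.61.

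The kinases and the other subunits of the ULK1 complex did not pass. Ulk1, the kinase that mTORC1 restrains, averaged 65.7 ± 15.8 normalized counts in Rragc +/+ and 44.0 ± 9.70 in Rragc S74N/+ kidneys (SD, n = 5 each), a log2 fold change of -0.56 ± 0.21 (SE) with an unadjusted p of 0.0167 and an adjusted p of 0.114. Its partner kinase Ulk2 had a log2 fold change of -0.22 (95% interval -0.74 to 0.30), which was -0.02 without replicate 1 of Rragc S74N/+, and the regulatory subunit Atg13 had one of -0.32 (-0.67 to 0.04). Atg101, which stabilises ATG13, had 126, 120, 108, 141 and 142 normalized counts in Rragc +/+ and 192, 121, 124, 127 and 141 in Rragc S74N/+ kidneys. Its log2 fold change was 0.13, and 0.013 without replicate 1. Apart from replicate 1, the Rragc S74N/+ values lay within the range of the Rragc +/+ values. The log2 ratio of Ulk1 to Ulk2 averaged -0.57 ± 0.20 in Rragc +/+ and -0.91 ± 0.29 in Rragc S74N/+ kidneys (SD, n = 5 each), with an exact permutation p of 0.0794, adjusted to 0.317.

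Nucleation held no gene past the threshold. Becn1, the Beclin 1 subunit of the lipid kinase complex, had 178, 191, 213, 214 and 189 normalized counts in Rragc +/+ and 172, 209, 202, 183 and 187 in Rragc S74N/+ kidneys. The values of both genotypes lay in nearly the same range, and the 95% interval of the log2 fold change was -0.30 to 0.20. Ambra1, a positive regulator of Beclin 1 and ULK1, had 113, 109, 113, 122 and 124 normalized counts in Rragc +/+ and 69.0, 101, 133, 65.2 and 82.6 in Rragc S74N/+ kidneys. Replicate 3 of Rragc S74N/+ was the highest of all 10 kidneys and the other 4 were below every Rragc +/+ kidney. The log2 fold change of Ambra1 was -0.41 ± 0.18 (SE), with an unadjusted p of 0.0374 and an adjusted p of 0.168. The catalytic subunit Pik3c3 (VPS34) had a log2 fold change of 0.29, its regulatory subunit Pik3r4 (VPS15) one of 0.20, Uvrag, which belongs to the endosomal form of the complex, one of 0.08, and Atg14, which belongs to the autophagy form, one of -0.12. The smallest adjusted p of these 4 genes was 0.325.

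The genes of membrane supply and PI3P binding lay close to 0. Their log2 fold changes ran from -0.13 to 0.17, none passed the threshold, and the smallest adjusted p was 0.722. Wipi2, which binds PI3P and recruits ATG16L1, had 351, 286, 374, 416 and 432 normalized counts in Rragc +/+ and 337, 359, 411, 418 and 377 in Rragc S74N/+ kidneys. Vmp1, an endoplasmic reticulum scramblase, had 451, 465, 473, 289 and 251.7 in Rragc +/+ and 205, 363, 414, 383 and 386 in Rragc S74N/+ kidneys. Both genotypes overlapped for both genes. Replicate 1 of Rragc S74N/+ gave the lowest Vmp1 value of the 10, and the log2 fold change of Vmp1 was -0.13 with it and 0.050 without it. The other scramblase Tmem41b had a log2 fold change of -0.11, the PI3P effector Wipi1 one of 0.08, the lipid transfer genes Atg2a and Atg2b -0.07 and 0.02, and Atg9a, the membrane protein of seed vesicles, 0.17. The intervals of 5 of the 7 genes lay within 0.5 of 0.

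Conjugation held no gene past the threshold among 9. Atg12, the ubiquitin-like protein that is joined to ATG5, had 307, 314, 287, 333 and 327 normalized counts in Rragc +/+ and 271, 301, 386, 396 and 390 in Rragc S74N/+ kidneys. Replicates 3, 4 and 5 of Rragc S74N/+ were above all Rragc +/+ kidneys and replicate 1 was below them. Atg4d, a protease that processes LC3 proteins, had 173, 244, 178, 230 and 214 in Rragc +/+ and 132, 224, 167, 197 and 181 in Rragc S74N/+ kidneys. Atg5 was the fifth gene whose groups did not overlap, with 114 to 127 normalized counts in Rragc +/+ and 129 to 169 in Rragc S74N/+ kidneys. Its log2 fold change was 0.27 ± 0.12 (SE), with an unadjusted p of 0.0447 and an adjusted p of 0.186.

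For the enzymes of conjugation the estimates lay on both sides of 0. The E1-like enzyme Atg7 had a log2 fold change of 0.18, the E2-like enzyme Atg3 one of -0.20 and Atg16l1, which completes the E3-like complex, one of 0.09. The proteases Atg4a, Atg4b, Atg4c and Atg4d had log2 fold changes of -0.05, -0.12, -0.48 and -0.21, all negative (Atg4a was 0.024 when library totals were made equal) and none past the threshold. Atg4c was the least abundant of them, at 22.6 ± 5.59 normalized counts in Rragc +/+ and 15.9 ± 3.55 in Rragc S74N/+ kidneys (SD, n = 5 each), and its 95% interval was wide, from -1.06 to 0.09. The 4 genes with a CACGTG core upstream, shown above, had log2 fold changes of -0.20 (Atg3), 0.27 (Atg5), 0.18 (Atg7) and -0.07 (Bnip3), and none passed.

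Among the cargo receptors, Tax1bp1 rose. It had 575, 516, 712, 683 and 727 normalized counts in Rragc +/+ and 943, 931, 972, 1044 and 1076 in Rragc S74N/+ kidneys. Every Rragc S74N/+ kidney was above the highest Rragc +/+ kidney. The log2 fold change was 0.64 ± 0.12 (SE), with an adjusted p of 0.0061, and without replicate 1 of Rragc S74N/+ it was 0.66, with an adjusted p of 0.00156.

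Sqstm1 encodes p62, a receptor whose protein builds up in cells when autophagy is blocked and whose gene is itself transcribed under stress. The values here count mRNA, and they measure neither p62 protein nor the rate of autophagy. Sqstm1 averaged 2816 ± 118 normalized counts in Rragc +/+ and 2715 ± 177 in Rragc S74N/+ kidneys (SD, n = 5 each). It had 2959, 2693, 2722, 2918 and 2788 normalized counts in Rragc +/+ and 2543, 2875, 2931, 2656 and 2572 in Rragc S74N/+ kidneys. The 2 ranges overlapped, and the 95% interval of its log2 fold change, -0.26 to 0.15, was the narrowest of the set. Nbr1, a receptor related to p62, averaged 132 ± 10.6 and 133 ± 23.1 (SD, n = 5 each), with a 95% interval of -0.32 to 0.32 and a log2 fold change of 0.12 without replicate 1 of Rragc S74N/+. Optn (optineurin), a receptor for bacteria and mitochondria, averaged 35.6 ± 5.0 in Rragc +/+ and 51.7 ± 11.2 in Rragc S74N/+ kidneys, a log2 fold change of 0.51 ± 0.21 (SE) with an unadjusted p of 0.0265 and an adjusted p of 0.142. Calcoco1, a receptor in the turnover of endoplasmic reticulum, had a log2 fold change of -0.10 (95% interval -0.39 to 0.20). The log2 ratio of Sqstm1 to Nbr1 averaged 4.41 ± 0.10 in Rragc +/+ and 4.36 ± 0.26 in Rragc S74N/+ kidneys (exact permutation p = 0.722).

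**Figure D3:**
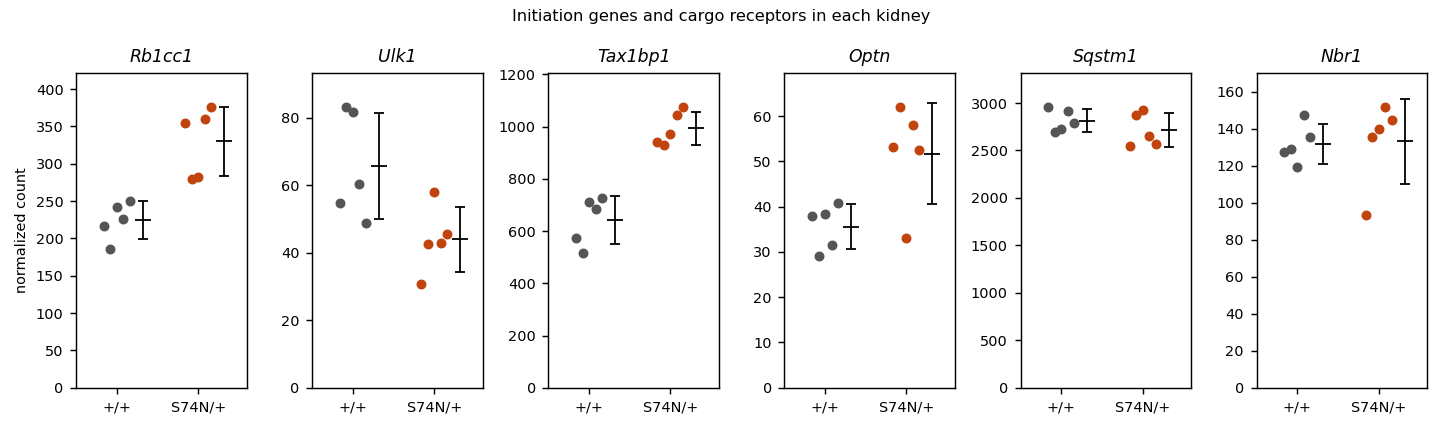
Normalized counts (vertical axes, from 0, scaled per gene) of the initiation genes Rb1cc1 and Ulk1 and the cargo receptors Tax1bp1, Optn, Sqstm1 and Nbr1 in each kidney, Rragc +/+ in grey and Rragc S74N/+ in orange, with mean and SD beside the points, n = 5 per genotype. The groups separate for Rb1cc1 and Tax1bp1 and overlap for the other 4 genes.

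None of the 3 mitophagy receptors passed. Bnip3, a hypoxia-induced receptor on the outer mitochondrial membrane, had 501, 441, 408, 479 and 451 normalized counts in Rragc +/+ and 331, 445, 497, 403 and 520 in Rragc S74N/+ kidneys. Bnip3l (NIX), its paralog, had 204, 303, 312, 258 and 229 in Rragc +/+ and 206, 238, 264, 312 and 247 in Rragc S74N/+ kidneys. The ranges overlapped for both, and the ratio of Bnip3 to Bnip3l differed by -0.03 on the log2 scale between genotypes (exact permutation p = 0.889). Fundc1, another receptor of that membrane, had a log2 fold change of 0.12 (95% interval -0.24 to 0.49). All 3 intervals lay within 0.5 of 0.

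Both fusion genes had positive estimates that did not pass. Stx17, the autophagosomal SNARE, had 113, 128, 143, 107 and 120 normalized counts in Rragc +/+ and 190, 145, 138, 145 and 153 in Rragc S74N/+ kidneys. A single Rragc S74N/+ kidney, replicate 3, fell within the Rragc +/+ range. The log2 fold change was 0.33 ± 0.14 (SE), with an unadjusted p of 0.0296 and an adjusted p of 0.15. Epg5, a tether between autophagosome and lysosome, had 29.1, 34.3, 26.9, 40.2 and 29.8 in Rragc +/+ and 67.1, 19.4, 28.0, 46.8 and 36.9 in Rragc S74N/+ kidneys. Its Rragc S74N/+ values held both the lowest and the highest of the 10, and the 95% interval ran from -0.41 to 0.80. Without replicate 1 of Rragc S74N/+ the log2 fold change was 0.25 for Stx17 and -0.025 for Epg5.

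Set side by side, the steps had median log2 fold changes of -0.48 for the LC3 family, -0.22 for initiation, -0.05 for conjugation, -0.04 for mitophagy receptors, -0.0013 for cargo receptors, 0.02 for nucleation, 0.02 for membrane supply and 0.26 for fusion, beside -0.01 for all genes tested. These medians are descriptions over 2 to 9 genes, and no test was made between steps. Without replicate 1 of Rragc S74N/+ the medians were, in the same order, -0.38, -0.02, 0.08, 0.03, 0.12, 0.03, 0.05 and 0.11. Median normalized counts also differed between steps, from 87.1 for fusion and 88.9 for nucleation to 588 for the LC3 family.

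Of the 10 pairs of related genes, none had a ratio past the threshold after adjustment. The remaining pairs differed by -0.27 (Atg4c to Atg4d), 0.19 (Gabarapl2 to Gabarap), -0.10 (Atg2a to Atg2b), 0.07 (Atg4a to Atg4b) and 0.03 (Wipi1 to Wipi2) on the log2 scale, with exact permutation p between 0.0794 and 0.849. The smallest p that the allocations of 5 against 5 kidneys can give is 0.00794, so a single pair could not have passed after adjustment over 10 pairs however far its groups lay apart.

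**Figure D4:**
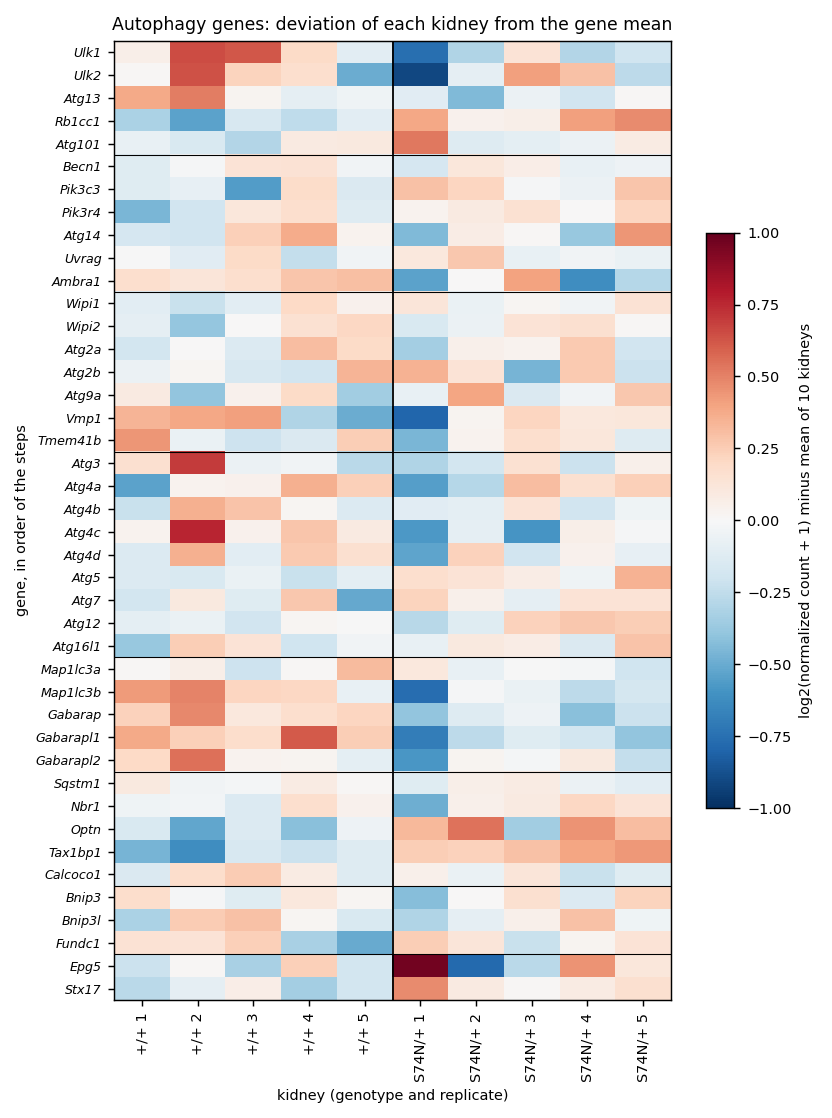
Deviation of log2(normalized count + 1) from the mean of the 10 kidneys for the 42 autophagy genes (rows, in order of the steps, which lines separate) in each kidney (columns, Rragc +/+ replicates left, Rragc S74N/+ replicates right); red is above and blue below the mean. The LC3 family genes Gabarap and Gabarapl1 are blue in all 5 Rragc S74N/+ columns, Tax1bp1 and Rb1cc1 are red there, and the column of Rragc S74N/+ replicate 1 is the extreme of its group for 27 genes.

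Another 51 genes of the pathway, from regulators and lipid-binding proteins to selective receptors and fusion factors, were taken as a second list, and 49 of them were in the table and tested. Among these, 4 fell, which is 8.16% of the list beside 2.58% of all genes lower. None rose, beside 3.45% of all genes higher. In either direction the share of all genes was 6.03%, and the list was not tested as a set. Without adjustment, 1 of the 49 was higher and 10 were lower at a p under 0.05, beside 12.6% and 12.8% of all genes. The median log2 fold change of the list was -0.05.

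Wdfy3 (ALFY), a large scaffold for protein aggregates, had 605, 637, 629, 651 and 565 normalized counts in Rragc +/+ and 338, 422, 428, 453 and 481 in Rragc S74N/+ kidneys. Its groups did not overlap, and its log2 fold change was -0.55 ± 0.11 (SE), with an adjusted p of 0.0115. It was -0.47 without replicate 1 of Rragc S74N/+, with an adjusted p of 0.00782. Tollip, an adaptor that binds ubiquitin and LC3, was a low-count gene with 20.1, 40.6, 28.8, 25.3 and 22.9 in Rragc +/+ and 7.46, 14.5, 11.0, 6.11 and 9.72 in Rragc S74N/+ kidneys. It gave the largest fold change of the 2 lists, -1.42 ± 0.31 (SE) on the log2 scale, with an adjusted p of 0.0146, and 0.0557 without replicate 2 of Rragc +/+. Without replicate 1 of Rragc S74N/+ the log2 fold change of Tollip was -1.35, with an adjusted p of 0.0171.

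Tex264, a receptor in the turnover of endoplasmic reticulum, had 264, 295, 190, 206 and 187 normalized counts in Rragc +/+ and 102, 150, 200, 119 and 135 in Rragc S74N/+ kidneys. Replicate 3 of Rragc S74N/+ lay within the Rragc +/+ range and the other 4 below it. The log2 fold change was -0.70 ± 0.18 (SE), with an adjusted p of 0.0340. Nipsnap2, a mitochondrial protein that can flag damaged mitochondria, had 195, 222, 169, 173 and 135 in Rragc +/+ and 55.0, 115, 133, 115 and 110 in Rragc S74N/+ kidneys. Its groups did not overlap by a small margin, and its log2 fold change was -0.79 ± 0.21 (SE), with an adjusted p of 0.0375. Without replicate 1 of Rragc S74N/+ the log2 fold change was -0.60 for Tex264 and -0.58 for Nipsnap2, and both passed. The call of Tex264 was lost without replicate 1, 2 or 4 of Rragc +/+ or replicate 4 or 5 of Rragc S74N/+ (adjusted p 0.0605 to 0.106). That of Nipsnap2 was lost without replicate 1, 2, 3 or 4 of Rragc +/+ or replicate 2, 4 or 5 of Rragc S74N/+ (adjusted p 0.05005 to 0.112).

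**Figure D5:**
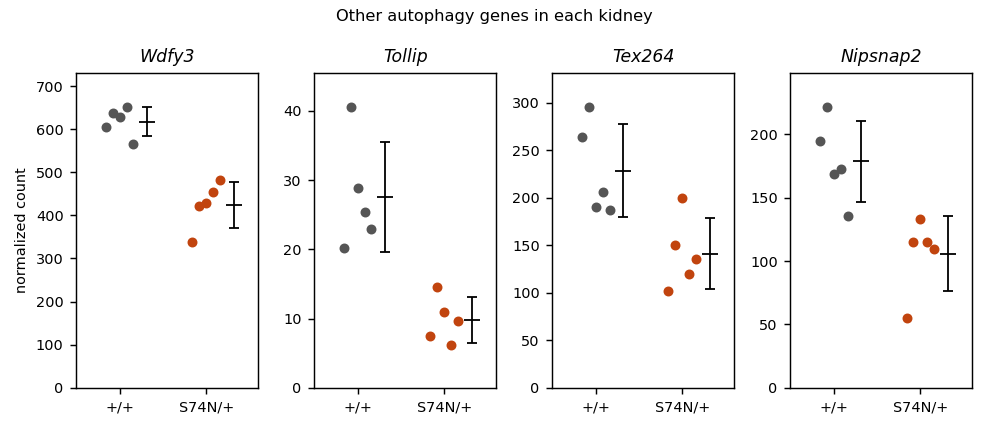
Normalized counts (vertical axes, from 0, scaled per gene) of the 4 other pathway genes past the threshold in each kidney, Rragc +/+ in grey and Rragc S74N/+ in orange, with mean and SD beside the points, n = 5 per genotype. All 4 are lower in Rragc S74N/+ kidneys, and only Tex264 has a Rragc S74N/+ point, at 200, within the Rragc +/+ range.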

How the data were processed

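Whole-kidney 3′ mRNA libraries of 5 Rragc S74N/+ and 5 Rragc +/+ mice were analysed. Per the labels, the authors checked reads with FastQC 0.11.7, aligned them to GRCm39 with TopHat2 2.0.10, Bowtie 1.0.0 and SAMtools 0.1.19 and counted sense-strand reads per gene with HTSeq 0.6.1. The signal values deposited are normalized counts: the authors divided the reads of a sample by its size factor. No column of other samples was present.

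Genes with a value of at least 5 in at least 5 samples were kept (13236 of 13299). Log2(normalized count + 1) was fitted with limma 3.58.1 (R 4.3.3, eBayes with a variance trend, genotype only), two-sided, with Benjamini-Hochberg adjustment over all genes at 0.05. Fold changes are on this scale, which understates the change of low genes. Ratios of related genes were compared by exact permutation. In all 10 columns 100% of values were whole multiples of 1 read (tolerance 0.01 reads), but in Rragc +/+ replicate 5 and Rragc S74N/+ replicate 3 the size factor was too near 1 for the test of recovered reads. edgeR 4.0.16 and DESeq2 1.42.0 were run on the reads of the other 8, and on whole multiples in all 10 columns, as alternatives. Each of the 28 pairs of those 8 libraries differed beyond sampling noise (chi-square per degree of freedom at least 4.20). Scripts were tested on simulated data.

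Members and lists were chosen with earlier results of these data known. Every member is named. Per-sample values are given for those past the threshold and the 2 highest in each step. Of the other pathway genes those past the threshold are named. The 10 samples were numbered within groups in order of deposit.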

Additional observations from a re-analysis of the deposited data

Results flagged for a closer look

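In 104 groups of 5 values (each gene or ratio in each genotype), 6 had 1 sample whose gap to the nearest other exceeded the 95% critical value of Dixon's test, and chance flags about 1 group in 20. Rragc S74N/+ replicate 1 gave 4 of them. Its normalized count was 192 for Atg101 (the others 121 to 141), 205 for Vmp1 (363 to 414), 93.3 for Nbr1 (136 to 152) and 190 for Stx17 (138 to 153). Rragc +/+ replicate 2 had 32.2 for Atg4c (the others 19 to 22.7). The log2 ratio of Atg2a to Atg2b was 2.24 in Rragc +/+ replicate 4 (1.59 to 1.77). None of the genes named here passed the threshold in the comparison of genotypes.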

How the results depend on the processing

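Gabarapl1 and Tax1bp1 passed in all 24 alternatives, Gabarap in 19, Rb1cc1 in 18 and Map1lc3b, which did not pass in the reported fit, in 6. Over all 24 alternatives the adjusted p of Map1lc3b ran from 0.0113 to 0.15. The members past the threshold numbered 4 in the reported fit, 2 (1 higher, 1 lower) by eBayes without the variance trend and 7 (4 lower) by DESeq2 on 8 samples. Leaving out 1 sample gave 2 to 5, with 1 to 2 higher and 1 to 3 lower. The count was 2 without replicate 1 or 2 of Rragc +/+ or replicate 4 or 5 of Rragc S74N/+. All genes past the threshold numbered 798. They numbered 391 (241 higher, 150 lower) without the variance trend, 1402 (762 and 640) by DESeq2 on 8 samples, and 1354 (781 and 573) by DESeq2 on 10 samples, an alternative added after the data were seen. Leaving out 1 sample gave 311 to 902 genes (186 to 503 higher, 125 to 424 lower). Of the other pathway genes, 4, all lower, became 2 (Wdfy3 and Tollip) with equal library totals or without the trend, and 1 to 5 without 1 sample. Wdfy3 passed in all 24 alternatives, Tex264 in 17 and Nipsnap2 in 15. Tollip passed in 22 of the 23 alternatives that tested it.

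Equal library totals moved the median of all genes to 0.06 and gave 718 higher and 225 lower, that is 76.1% higher against 57.3%, with the same 4 members past the threshold. Under this scaling some estimates near 0 changed sign: Becn1 0.030, Atg2a 0.0073, Atg4a 0.024, Map1lc3a 0.00028, Sqstm1 0.025, Nbr1 0.077, Bnip3 0.011 and Bnip3l 0.042. Nbr1 was also positive with equal 75th percentiles (0.013), by edgeR (0.012 on 8 and 0.022 on 10 samples) and by DESeq2 (0.0031 and 0.013). Without 1 sample, estimates near 0 ranged over both signs for Wipi2 (-0.049 to 0.099), Atg2a (-0.15 to 0.0047), Atg2b (-0.059 to 0.14), Vmp1 (-0.27 to 0.050), Atg4a (-0.19 to 0.078), Nbr1 (-0.053 to 0.12), Bnip3 (-0.13 to 0.029), Bnip3l (-0.12 to 0.034) and Epg5 (-0.025 to 0.41), and for the log2 ratios of Atg4a/Atg4b (-0.0091 to 0.19), Bnip3/Bnip3l (-0.14 to 0.088), Atg2a/Atg2b (-0.23 to 0.063), Wipi1/Wipi2 (-0.030 to 0.087) and Sqstm1/Nbr1 (-0.15 to 0.0067). The median of initiation was -0.40 by DESeq2 on 8 samples and -0.37 to -0.020 without 1 sample, and that of cargo receptors -0.047 to 0.12. The other medians without 1 sample ran from -0.53 to -0.38 for the LC3 family, 0.11 to 0.38 for fusion, -0.18 to 0.078 for conjugation, -0.031 to 0.059 for nucleation, -0.049 to 0.096 for membrane supply and -0.072 to 0.034 for mitophagy receptors. The cause of these shifts was not tested.

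No paired analysis was made because the labels name no litter or other pairing of the mice. Titles carry numbers below or above 200, and taking this range as a block left the same 4 members past the threshold.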
